A study of Mus musculus with 20 samples.

Results

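The genes described are 9 integrin subunits (Itga4, Itga6, Itga9, Itgae, Itgal, Itgb1, Itgb2, Itgb7 and Itgb3) of 19505 genes measured on mouse Tregs, the CD4 T cell subset that keeps immune responses in check. The 9 were found by symbol in the array annotation, and each had 1 probe set. The 9 genes were selected on measured values: earlier results of these arrays, among them knockout effects on Itga9, Itga4 and Itgb1, were known. Knockout against WT differences of these genes are therefore given as descriptions with no test. The response to stimulation, the interaction of knockout and stimulation, and the difference between the 2 knockouts were tested. The interaction and the difference between knockouts are built from knockout against WT differences. For Itga9, Itga4 and Itgb1 their p-values are therefore not independent of the choice of genes.

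Integrins are surface receptors built from 1 alpha and 1 beta subunit, and the pairing sets which ligand a cell can bind. T cells use α4β1 and α9β1 for vascular and matrix ligands, α4β7 for entry into gut tissue, αEβ7 for epithelial E-cadherin, and LFA-1 (αL with β2) for ICAM molecules on other cells. A cell cannot place an alpha chain on its surface without a partner, so the transcripts of partners are described side by side here.

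All cells were CD4+CD25+ Tregs of C57BL/6 mice, enriched with CD4 beads and then sorted. In the Rheb experiment, 12 arrays compared Rheb1/2 KO Tregs (Rheb KO below) with WT Tregs, each stimulated or unstimulated, with 3 arrays for each of these 4 groups. In the Rag experiment, 8 arrays compared RagAB KO Tregs (Rag KO) with WT Tregs, each stimulated for 8 h or unstimulated, with 2 arrays for each of 4 groups. The sources used here do not name the stimulus, its duration in the Rheb experiment, the age of the mice, or the promoter or Cre line behind the deletions. Both sets of deleted genes encode small GTPases that act on the kinase complex mTORC1, Rheb as its direct activator and the Rags as its amino acid switch. The labels do not say whether arrays of a group came from separate mice, so each p-value reflects only how much these arrays vary, which may be technical.

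Groups followed the sample titles. For 6 arrays of the Rheb experiment, those of unstimulated KO and of stimulated WT cells, the treatment field names the opposite state, whereas the source names match the titles. The median log2 signal per array spanned 7.67 to 7.77 in the Rheb experiment. In the Rag experiment it spanned 7.18 to 7.55, and unstimulated KO array 1 (7.29) and unstimulated WT array 2 (7.18) were lowest. Levels were compared only within an experiment. Rheb was lower in Rheb KO (-0.88 ± 0.17 log2, SE, adjusted p = 0.0413 unstimulated; -0.93 ± 0.17, adjusted p = 0.0278 stimulated), and Rraga, which encodes RagA, was lower in Rag KO (-2.43 ± 0.25, adjusted p = 0.00266; -2.18 ± 0.25, adjusted p = 0.00448). Rhebl1 (Rheb2) and Rragb (RagB) were not called, and where their probes lie relative to the deletions is not given. Rhebl1 lay below the negative control median on every array of the Rheb experiment. Rragb lay below the array median on most arrays of the Rag experiment. The T cell genes Cd4 and Cd3e and the Treg genes Ctla4, Ikzf2, Tnfrsf18 and Izumo1r exceeded the 95th percentile of the negative control probes on all 20 arrays, whereas Il2ra, which encodes CD25, did so on 0 and exceeded its array's median on 14. Foxp3 was not analysed here. In bulk RNA, fewer cells of a type and less RNA per cell cannot be told apart.

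All 9 integrin genes exceeded the median of the negative controls on every array. Itga6 and Itgal also exceeded their 95th percentile on all 20 arrays, against 17 for Itgb2, 14 for Itgb1, 13 for Itga4, 3 each for Itga9 and Itgae, 1 for Itgb7 and 0 for Itgb3.

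Promoter sequence is shown for Itga4 and Itgb1, whose products form α4β1 and whose transcripts were both lower in unstimulated KO Tregs of either experiment. Each run is the 250 bases before the start site in RefSeq (GRCm38.p6, plus strand), at chr2:79255176-79255425 for Itga4 and chr8:128685404-128685653 for Itgb1, with motif matches in capitals.
Itga4: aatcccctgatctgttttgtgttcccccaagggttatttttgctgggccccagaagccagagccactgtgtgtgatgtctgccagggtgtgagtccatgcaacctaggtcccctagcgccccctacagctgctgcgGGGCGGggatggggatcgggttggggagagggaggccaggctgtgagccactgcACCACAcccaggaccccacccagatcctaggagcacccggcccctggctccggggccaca
Itgb1: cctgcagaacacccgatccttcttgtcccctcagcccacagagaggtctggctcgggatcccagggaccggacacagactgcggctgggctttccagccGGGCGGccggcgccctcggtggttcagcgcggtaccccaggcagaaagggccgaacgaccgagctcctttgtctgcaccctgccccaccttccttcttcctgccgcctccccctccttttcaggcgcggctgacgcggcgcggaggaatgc
Both hold 1 GC box (GGGCGG), a motif found on either strand in 32.7% of the 32851 promoters of the table. Itga4 also holds 1 RUNX core (TGTGGT) on the minus strand, 54 bases before the start, which 14% of promoters hold. The ETS core (CCGGAA, in 12% of promoters), the E-box (CACGTG, 6.02%), the AP-1 site (TGANTCA, 6.75%) and the CRE (TGACGTCA, 1.55%) were also searched on both strands and had no match in these windows. No match overlaps another, and a match describes letters, not binding. Itga9 and Itgb7 also have entries in the table, and their windows held no match to any of these motifs. Itga6, Itgae, Itgal, Itgb2 and Itgb3 were not found in the table, so their promoters were not searched.

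**Figure D1:**
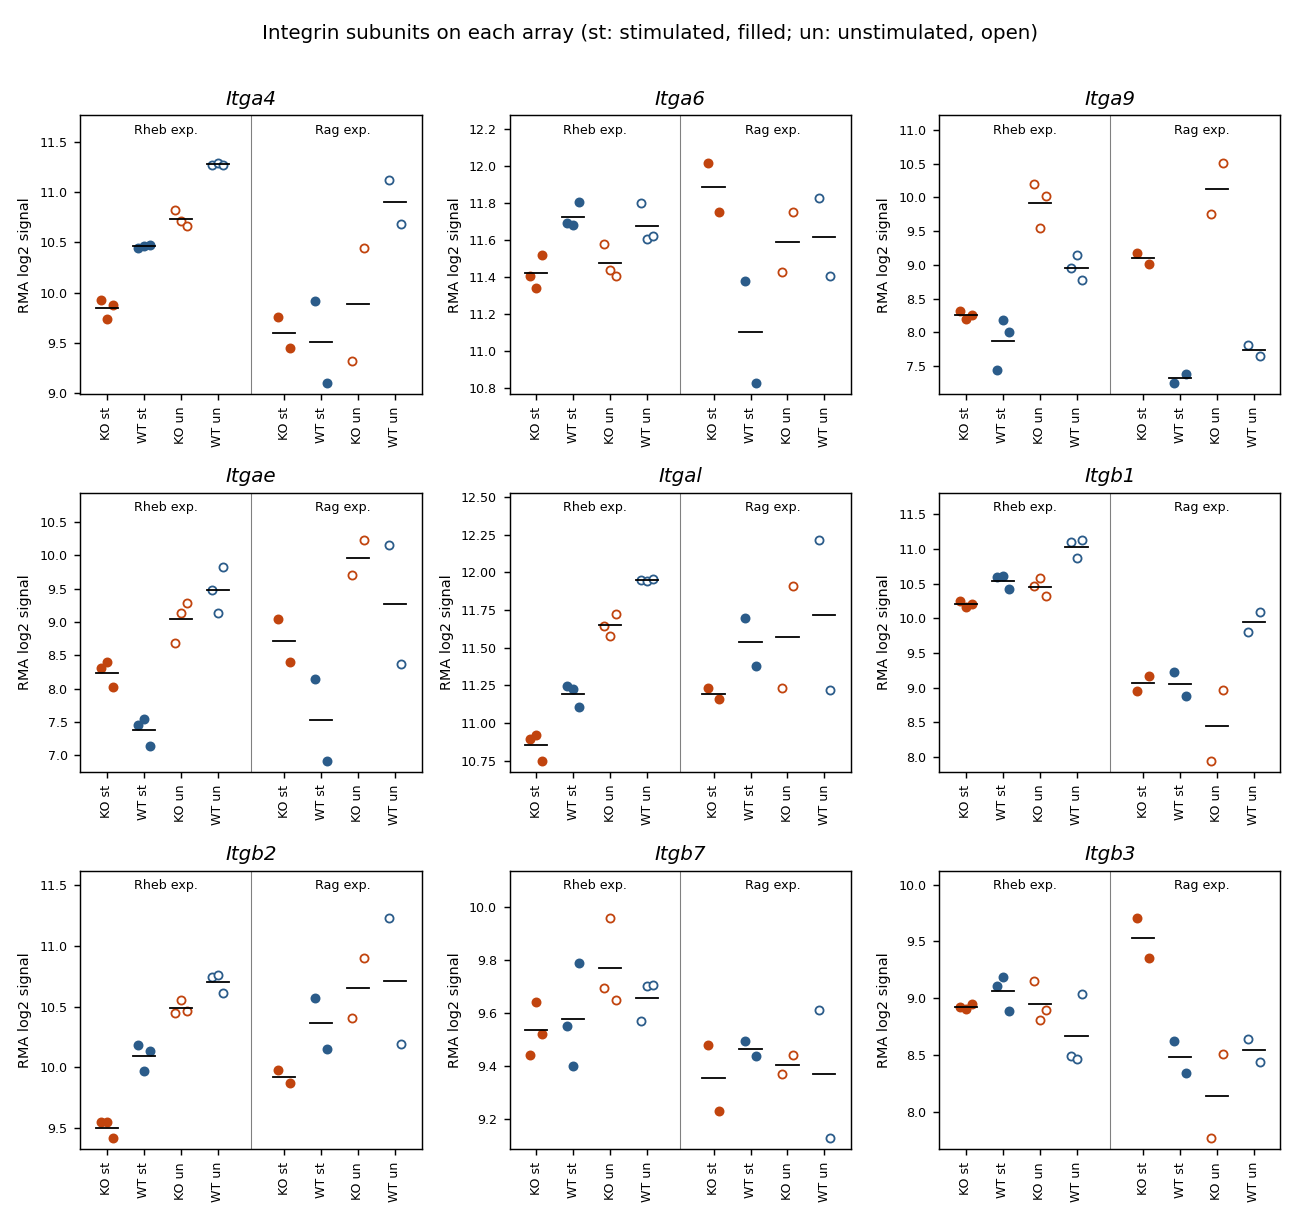
RMA log2 signal of each integrin subunit gene on every array, with 1 panel per gene. In each panel the Rheb experiment (3 arrays per group) is left of the Rag experiment (2 arrays per group), points are arrays, bars are group means, red is KO, blue is WT, filled is stimulated and open is unstimulated. Itga9 lies higher in KO than in WT arrays in all 4 pairs of groups.

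Itga9 (GRCm38.p6 chr9:118606709-118901003) encodes α9, which pairs only with β1 and binds tenascin-C, osteopontin and VCAM-1. In each experiment and state, all knockout arrays lay above all WT arrays. In unstimulated Rheb KO Tregs its log2 signals were 10.19, 9.55 and 10.03, against 8.95, 9.14 and 8.77 in unstimulated WT Tregs, a difference of 0.97 ± 0.19 log2 (SE of the fit). In stimulated Rheb KO Tregs they were 8.31, 8.20 and 8.26, against 7.44, 8.18 and 8.00 in stimulated WT Tregs (0.39 ± 0.19). The stimulated groups did not overlap, but the lowest KO array lay only just above the highest WT array, and the 95% interval of the difference ran from -0.02 to 0.80. Without stimulated WT array 1 the difference was 0.17.

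The same direction was seen in the Rag experiment. Unstimulated Rag KO Tregs had 9.75 and 10.51, against 7.81 and 7.65 in unstimulated WT Tregs (2.40 ± 0.27). Stimulated Rag KO Tregs had 9.18 and 9.02, against 7.25 and 7.39 in stimulated WT Tregs (1.78 ± 0.27). On a linear scale these are 5.27-fold and 3.43-fold higher signals, and both KO arrays of each state lay far above both WT arrays. The Rag KO effect minus the Rheb KO effect was 1.43 ± 0.32 unstimulated and 1.39 ± 0.32 stimulated. In limma adjusted p was 0.141 and 0.0874, so the knockouts were not shown to differ for Itga9. These p-values come from knockout values that helped to choose Itga9, so passing the threshold would not count as support. Leaving out unstimulated Rag KO array 1 brought the unstimulated difference past the threshold (1.81, adjusted p = 0.0303), and leaving out array 2 gave 1.05 (adjusted p = 0.0666). The stimulated one passed without either unstimulated Rag KO array (1.39, adjusted p = 0.0254) or without stimulated WT array 1 of the Rheb experiment (1.61, adjusted p = 0.0317).

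Human neutrophils carry α9β1, and neutrophil genes were high on some Rag KO arrays. The summed linear signal of 7 neutrophil markers was 1294 and 6816 in unstimulated Rag KO arrays 1 and 2, against 1881 and 711 in the unstimulated WT arrays. It was 1144 and 5079 in stimulated Rag KO arrays 1 and 2, against 1220 and 895 in the stimulated WT arrays. The high sums belonged to the Rag KO arrays numbered 2. The medians over the 7 genes were 1.40 and 1.07 log2 higher in Rag KO, unstimulated and stimulated, with 7 and 6 genes above 0 and none called. With Rag KO array 1 alone, Itga9 was 2.02 log2 above the unstimulated WT mean and 1.86 above the stimulated WT mean. The median of the neutrophil genes differed by 0.31 and -0.42 on these arrays. These are values of 1 KO array per state, and the part of neutrophils in the Itga9 signal was not tested. In the Rheb experiment the sums spanned 838 to 920 in KO and 805 to 903 in WT arrays, and S100a8, S100a9, Mpo and Ngp lay at or below the negative control median in every array. Genes of other cells were also higher in KO in some pairs of groups. In unstimulated Rheb KO the sum of 10 macrophage genes was 2471 to 2605, against 1830 to 1865 in WT. All 10 were above 0, and C1qa (1.14) and Ms4a7 (0.84) were called. The macrophage sum overlapped with WT in the other pairs, with none called. It was 1140 to 1181 in stimulated Rheb KO, against 1174 to 1361 in WT, with 4 of 10 genes above 0. It was 853 to 1345 in unstimulated Rag KO, against 678 to 941 in WT. In stimulated Rag KO it was 980 to 1160, against 895 to 1007 in WT.

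The sum of 10 dendritic cell genes was higher in KO than in WT arrays, without overlap, in all 4 pairs of groups, as Itga9 was. It was 3603 to 3876 in unstimulated Rheb KO, against 2549 to 2585 in WT, with H2-Eb1 (0.83) and H2-Ab1 (0.73) called. In stimulated Rheb KO it was 1892 to 2083, against 1527 to 1848 in WT, with H2-Eb1 called (0.78). It was 1981 and 2157 in unstimulated Rag KO, against 1540 and 1031 in WT, and 1935 and 2355 in stimulated Rag KO, against 1584 and 1625 in WT, with none called and, stimulated, only 4 of the 10 genes above 0. Clec9a lay at or below the negative control median in all 8 groups, and Xcr1 and Flt3 in 7 and 7 of them. Itgax lay there in every group but unstimulated Rheb KO. The sum of 7 natural killer cell genes was also higher without overlap in both Rag pairs and in stimulated Rheb KO (537 to 675, against 442 to 501 in WT). In the Rag pairs it was 771 to 955 in unstimulated Rag KO, against 519 to 659 in WT, and 715 to 799 in stimulated Rag KO, against 330 to 451 in WT, and no gene was called in any of the 4 pairs. Klrb1c, Klrk1 and Klre1 lay at or below the negative control median in every group. The part of macrophages, dendritic cells and natural killer cells in the Itga9 signal, like that of neutrophils, was not tested.

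**Figure D2:**
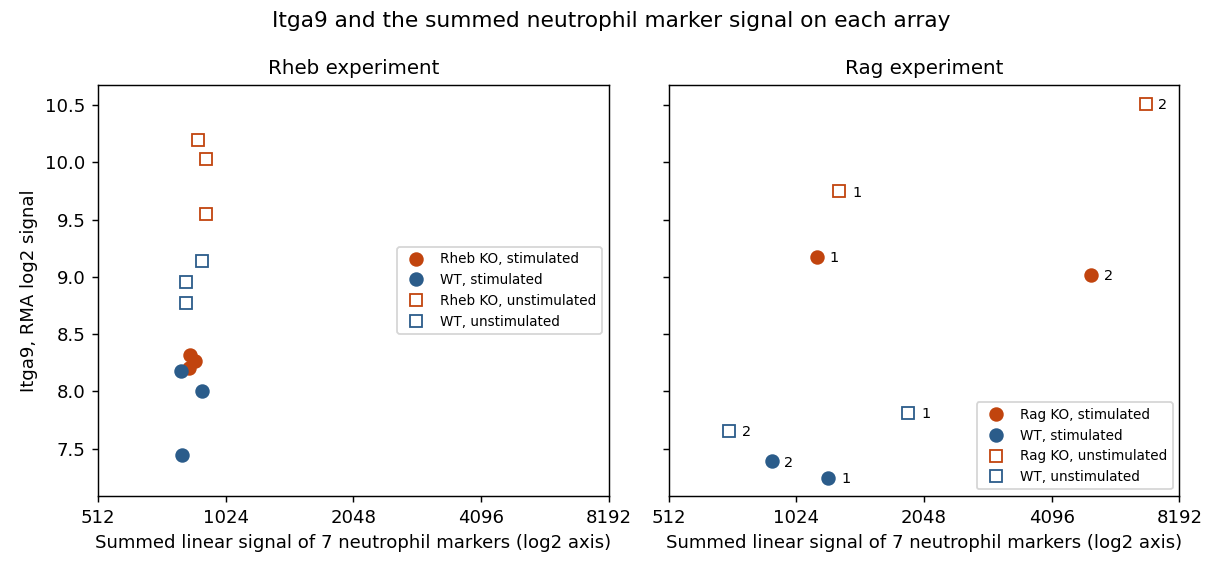
Itga9 log2 signal (vertical axis) against the summed linear signal of 7 neutrophil marker genes (horizontal axis, log2 scale) on each array of the Rheb experiment (left) and the Rag experiment (right, array numbers beside the points). Red is KO, blue is WT, circles are stimulated and squares unstimulated; the Rag KO arrays numbered 1 lie above the WT arrays in Itga9 at sums of 1144 and 1294.

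Itga4 (GRCm38.p6 chr2:79255426-79333114) encodes α4, the subunit of VLA-4 and of the gut-homing α4β7. It was lower in Rheb KO Tregs in both states. Unstimulated Rheb KO arrays had 10.83, 10.71 and 10.67, against 11.27, 11.29 and 11.27 in unstimulated WT arrays (-0.54 ± 0.09). Stimulated Rheb KO arrays had 9.93, 9.74 and 9.88, against 10.44, 10.47 and 10.47 in stimulated WT arrays (-0.61 ± 0.09). Neither pair overlapped, and the WT arrays of each state lay close together. Unstimulated Rag KO arrays had 9.32 and 10.45, against 11.12 and 10.68 in unstimulated WT arrays (-1.02 ± 0.36), again without overlap. That difference was -0.45 without KO array 1 and -1.58 without KO array 2. After stimulation the Rag KO arrays had 9.76 and 9.45, against 9.92 and 9.10 in the WT arrays (0.09 ± 0.36), and the groups overlapped. In the Rheb experiment the summed signal of 5 T cell genes was also lower in KO. It was 18370 to 18451 against 19040 to 19606 in WT unstimulated and 13270 to 13990 against 15065 to 15362 in WT stimulated, with none called. The sum of 7 Treg markers was lower in KO too, with none called. Unstimulated it was 26099 to 27656, against 30073 to 31424 in WT. Stimulated it was 34032 to 34852, against 36149 to 37108 in WT. In unstimulated Rag KO both sums overlapped with WT, and none was called. The T cell sum was 11062 to 15706, against 13425 to 21619 in WT, with 0 of 5 genes above 0. The Treg sum was 16334 to 23126.5, against 20577 to 37256 in WT, with 1 of 7 genes above 0. In stimulated Rag KO 2 of 5 and 6 of 7 were above 0. The part of these shifts in the Itga4 and Itgb1 signals was not tested.

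Itgb1 (GRCm38.p6 chr8:128685654-128733579) encodes β1, the shared partner of α4, α6 and α9. Unstimulated Rheb KO arrays had 10.46, 10.59 and 10.32, against 11.10, 10.86 and 11.12 in unstimulated WT arrays (-0.57 ± 0.11). Stimulated Rheb KO arrays had 10.25, 10.16 and 10.21, against 10.59, 10.61 and 10.42 in stimulated WT arrays (-0.33 ± 0.11). Every Rheb KO array was thus below every WT array of its state. Unstimulated Rag KO arrays had 7.95 and 8.96, against 9.80 and 10.09 in unstimulated WT arrays (-1.49 ± 0.31). The difference was -0.99 without KO array 1, and -0.84 without the arrays of lowest median, unstimulated KO array 1 and WT array 2. Stimulated Rag KO arrays had 8.96 and 9.17, against 9.23 and 8.88 in stimulated WT arrays, which overlapped (0.01 ± 0.31). The Rag KO effect minus the Rheb KO effect was -0.92 ± 0.30 unstimulated (limma, adjusted p = 0.465, from knockout values that helped to choose Itgb1). Leaving out unstimulated Rag KO array 2 brought that difference past the threshold (-1.43, adjusted p = 0.00314), while leaving out array 1 reduced it to -0.41 (adjusted p = 0.996).

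LFA-1, the pair encoded by Itgal (GRCm38.p6 chr7:127296139-127335137) and Itgb2 (GRCm38.p6 chr10:77530329-77565708), holds T cells to ICAM on antigen-presenting cells and endothelium. Itgb2 was lower in stimulated Rheb KO arrays, at 9.55, 9.55 and 9.41, against 10.18, 9.97 and 10.14 in stimulated WT arrays (-0.59 ± 0.09). Its unstimulated difference was -0.21 ± 0.09. Itgal differed by -0.30 ± 0.09 unstimulated and -0.34 ± 0.09 stimulated. For both genes KO and WT arrays of the Rheb experiment did not overlap in either state. In Rag KO, Itgal differed by -0.15 ± 0.33 and Itgb2 by -0.05 ± 0.32 unstimulated, with overlapping arrays, and by -0.34 ± 0.33 and -0.44 ± 0.32 stimulated, without overlap. Without stimulated WT array 1 the stimulated differences were -0.18 for Itgal and -0.23 for Itgb2.

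Itgae (GRCm38.p6 chr11:73090505-73147449) encodes αE (CD103), which pairs with β7 and is induced by TGF-beta. In stimulated Rheb KO arrays its signals were 8.30, 8.39 and 8.02, against 7.46, 7.55 and 7.14 in stimulated WT arrays (0.85 ± 0.19). In unstimulated Rheb KO arrays they were 8.69, 9.13 and 9.29, against 9.48, 9.13 and 9.82 in unstimulated WT arrays (-0.44 ± 0.19), or -0.27 without unstimulated KO array 1 or WT array 3. The stimulated groups were separate and the unstimulated groups overlapped. In stimulated Rag KO arrays Itgae was 9.04 and 8.40, against 8.15 and 6.92 in WT arrays (1.18 ± 0.50, no overlap), a difference of 1.80 without WT array 1 and 0.57 without WT array 2. In unstimulated Rag KO arrays it was 9.71 and 10.22, against 10.15 and 8.37 in WT arrays (0.70 ± 0.50, overlapping), which was 1.60 without WT array 1 and -0.19 without WT array 2. Itgb7 (GRCm38.p6 chr15:102215994-102233405), the partner of αE and α4, differed by no more than 0.11 in size in any knockout comparison, and its groups overlapped in all 4.

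Itga6 (GRCm38.p6 chr2:71786886-71858427) encodes α6, a laminin receptor chain. In stimulated Rag KO arrays it was 12.02 and 11.75, against 11.38 and 10.83 in WT arrays (0.78 ± 0.27, or 0.50 without WT array 2), and it differed by -0.31 ± 0.10 in stimulated Rheb KO. Arrays were separate in both comparisons, in opposite directions. The difference between the knockouts was 1.09 ± 0.25 (adjusted p = 0.0854), and it passed the threshold without stimulated WT array 1 of the Rag experiment (1.36, adjusted p = 0.0126), either unstimulated Rag KO array (adjusted p = 0.0460) or either unstimulated WT array of that experiment (adjusted p = 0.0449). Unstimulated, Itga6 differed by -0.03 ± 0.27 in Rag KO and -0.20 ± 0.10 in Rheb KO.

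Itgb3 (GRCm38.p6 chr11:104608000-104670476) encodes β3, the partner of αV in the vitronectin receptor and of αIIb on platelets. In stimulated Rag KO arrays it was 9.71 and 9.35, against 8.62 and 8.34 in WT arrays (1.05 ± 0.28, no overlap). In unstimulated Rag KO arrays it was 7.76 and 8.51, against 8.64 and 8.44 in WT arrays (-0.40 ± 0.28, overlapping), which was -0.03 without KO array 1 and -0.78 without KO array 2. In Rheb KO it differed by -0.14 ± 0.15 stimulated and 0.29 ± 0.15 unstimulated, overlapping in both. The Rag KO effect minus the Rheb KO effect was 1.19 ± 0.29 stimulated (adjusted p = 0.135) and -0.69 ± 0.29 unstimulated (adjusted p = 0.626). The first passed without either unstimulated Rag KO array (adjusted p = 0.0365) and the second without array 2 of that group (-1.06, adjusted p = 0.0401), while it was -0.32 without array 1 (adjusted p = 0.996). Of 7 platelet and megakaryocyte genes none was called in any comparison. Their summed signal was 1831 and 1835 in stimulated Rag KO, against 1936 and 2395 in stimulated WT, with Ppbp and Gp6 at or below the negative control median in both. Unstimulated, the sum was 2024 and 2005 in Rag KO, against 1832 and 1445 in WT. The part of platelets in the Itgb3 signal was not tested.

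**Figure D3:**
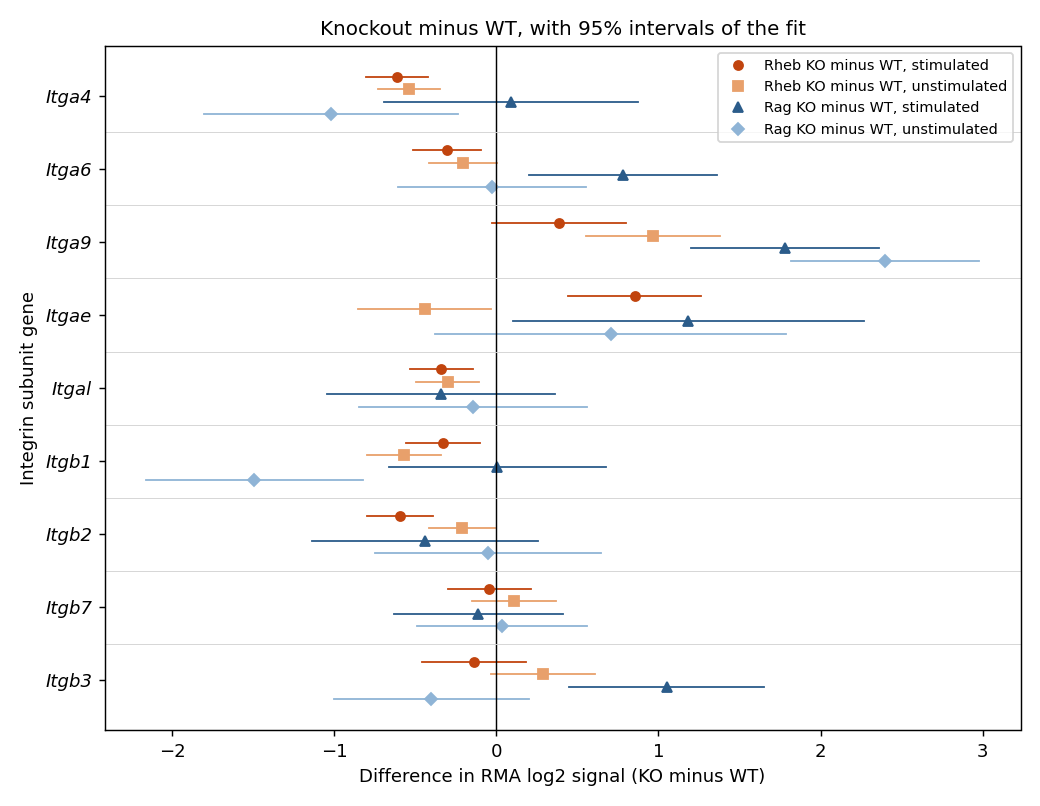
Difference in RMA log2 signal between KO and WT arrays (horizontal axis) for each integrin subunit gene (vertical axis), with 95% intervals of the limma fit, for Rheb KO and Rag KO in the stimulated and unstimulated state. Itga9 lies right of 0 in all 4 comparisons, at 0.39, 0.97, 1.78 and 2.40, while Itgb7 lies near 0.

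These differences are set against all genes as a background only, since they helped to choose the genes. Across the array, 0.226% of 19505 genes were called higher and 0.282% lower in unstimulated Rheb KO (limma, adjusted p under 0.05). In stimulated Rheb KO 0.205% were called higher and 0.338% lower. In unstimulated Rag KO 0.0513% were called higher and 0.0615% lower. A second quantile normalization turned that split of 10 genes higher and 12 lower into 26 higher and 17 lower. In stimulated Rag KO 0.0923% were called higher and 0.0103% lower. Arrays of the groups did not overlap for 6 and 7 of the 9 genes in unstimulated and stimulated Rheb KO, where 14.7% and 15.6% of all genes did not. In Rag KO they did not overlap for 3 and 6 of the 9, where 28.4% and 44.3% of all genes did not. The median difference of the 9 genes was -0.21 and -0.31 in Rheb KO and -0.05 and 0.09 in Rag KO, against 0.02, -0.01, 0.03 and -0.05 over all genes.

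Most of these transcripts were lower in stimulated than in unstimulated Tregs of the Rheb experiment. In Rheb KO, where 4.55% of genes rose and 5.19% fell across the array, 5 of the 9 fell and none rose. In WT, where 4.49% rose and 4.89% fell, 6 fell and none rose. The median difference of the 9 was -0.80 in KO and -0.61 in WT, against -0.01 and 0.02 over all genes.

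Itgae fell in both genotypes. Its stimulated Rheb KO arrays, at 8.30, 8.39 and 8.02, lay below the unstimulated KO arrays, at 8.69, 9.13 and 9.29 (-0.80 ± 0.19, adjusted p = 0.0158). Its stimulated WT arrays, at 7.46, 7.55 and 7.14, lay further below the unstimulated WT arrays, at 9.48, 9.13 and 9.82 (-2.09 ± 0.19, adjusted p = 2.32e-05). The groups did not overlap in either genotype. The call in KO ended without unstimulated KO array 2 (-0.75, adjusted p = 0.0627) or 3 (-0.67, adjusted p = 0.0711) or stimulated KO array 3 (-0.69, adjusted p = 0.0788). The interaction, which asks whether the responses differ, was 1.30 ± 0.27 with a 95% interval from 0.71 to 1.88, and it was not called (adjusted p = 0.304).

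Itga9 fell by 1.66 ± 0.19 in KO (adjusted p = 9.43e-05) and by 1.08 ± 0.19 in WT (adjusted p = 0.0026). Itga4 fell by 0.89 ± 0.09 in KO (adjusted p = 2.96e-05) and by 0.81 ± 0.09 in WT (adjusted p = 7.66e-05). For these alpha chains, as for LFA-1, the arrays of the states were separate in each genotype. Itgal fell by 0.80 ± 0.09 in KO (adjusted p = 7.7e-05) and by 0.76 ± 0.09 in WT (adjusted p = 0.000155). For its partner Itgb2 the falls were 0.99 ± 0.09 in KO (adjusted p = 2.29e-05) and 0.61 ± 0.09 in WT (adjusted p = 0.00107). The KO response minus the WT response was -0.58 for Itga9 (95% interval -1.16 to 0.00), -0.07 for Itga4 (-0.34 to 0.19), -0.04 for Itgal (-0.31 to 0.23) and -0.38 for Itgb2 (-0.67 to -0.09), none of them called.

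The shared chain Itgb1 differed by -0.25 ± 0.11 in KO (adjusted p = 0.191) and fell by 0.49 ± 0.11 in WT (adjusted p = 0.00996), with an interaction of 0.24 ± 0.15 that was not called. Itga6, Itgb7 and Itgb3 were not called in either genotype. Their differences were -0.05, -0.23 and -0.03 in KO and 0.05, -0.08 and 0.40 in WT. Itgb3 in WT was called without unstimulated WT array 3 (0.58, adjusted p = 0.0134).

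Genes of other cells moved with these falls. In the Rheb experiment 7 of 10 macrophage genes fell on stimulation in each genotype, C1qa by 2.30 in KO and 0.83 in WT. Their sum was 1140 to 1181 in stimulated KO, against 2471 to 2605 in unstimulated KO, and 1174 to 1361 in stimulated WT, against 1830 to 1865 in unstimulated WT. Of 10 dendritic cell genes H2-Eb1, H2-Ab1 and Itgax fell in each genotype. Itgax lay at or below the negative control median in both WT groups and in stimulated KO. T cell genes fell as well, 5 of 5 in KO and 4 of 5 in WT, with Cd28 by 0.64 in KO and 0.53 in WT. Itgb2, Itgal and Itga4 are also transcribed in myeloid cells, and the part of other cells in their falls was not tested. The Treg markers did not fall: of 7, 5 rose in KO and 3 in WT, among them Gpr83 and Tnfrsf18 in both. Of the other cell type lists, natural killer cell genes Klrb1c (-0.89) and Eomes fell in WT, and of the endothelial list only Pecam1, which T cells also transcribe, fell (-1.03 in KO and -0.85 in WT). B cell, CD8 T cell and erythroid genes had no call in any comparison.

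**Figure D4:**
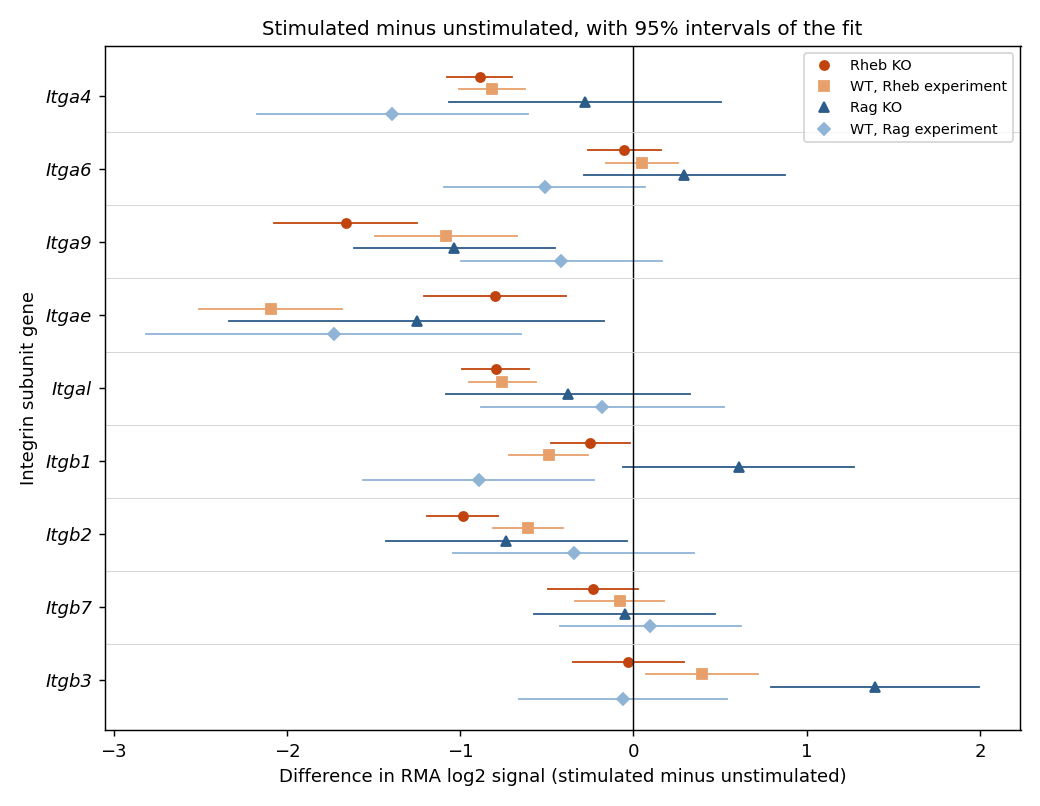
Difference in RMA log2 signal between stimulated and unstimulated arrays (horizontal axis) for each integrin subunit gene (vertical axis), with 95% intervals of the limma fit, in KO and WT Tregs of the Rheb experiment (circles, squares) and the Rag experiment (triangles, diamonds). Itgae lies left of 0 in all 4 groups, at -0.80, -2.09, -1.25 and -1.73, and Itgb3 lies at 1.39 in Rag KO.

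In the Rag experiment fewer genes were called. In Rag KO 1.2% of genes rose on stimulation and 0.123% fell, and of the 9 only Itgb3 passed. That split over all genes, 234 higher and 24 lower, was 215 and 167 after a second quantile normalization. Itgb3 rose to 9.71 and 9.35 in stimulated Rag KO arrays, against 7.76 and 8.51 in unstimulated ones (1.39 ± 0.28, adjusted p = 0.0275). The call ended without unstimulated KO array 1 (1.02, adjusted p = 0.202), stimulated KO array 1 (1.22, adjusted p = 0.207) or 2 (1.57, adjusted p = 0.138), or either unstimulated WT array (1.39, adjusted p = 0.0599), which only adds to the spread estimate. Itga9 differed by -1.03 ± 0.27 (adjusted p = 0.0825) with separate arrays, and was called without unstimulated KO array 1 (-1.42, adjusted p = 0.0260), while it was -0.65 without unstimulated KO array 2 (adjusted p = 0.187). Itgae differed by -1.25 ± 0.50 and Itgb2 by -0.73 ± 0.32, neither called. Itgb1 differed by 0.61 ± 0.31 (adjusted p = 0.413) and was called without unstimulated KO array 2 (1.11, adjusted p = 0.0256), while it was 0.10 without array 1.

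In WT Tregs of the Rag experiment 0.477% of genes rose on stimulation and 0.523% fell, and none of the 9 was called. The 93 genes higher and 102 lower became 208 and 430 after a second quantile normalization and 149 and 373 after centring on array medians. The nearest were Itga4, at 9.92 and 9.10 in stimulated arrays, against 11.12 and 10.68 in unstimulated arrays (-1.39 ± 0.36, adjusted p = 0.102), and Itgae, at 8.15 and 6.92 in stimulated arrays, against 10.15 and 8.37 in unstimulated arrays (-1.73 ± 0.50, adjusted p = 0.139). Both sets were separate, and the median of all genes itself was 0.21 higher in the stimulated arrays. Relative to the array medians, Itga4 differed by -1.57 and Itgae by -1.91, and both were then called (adjusted p = 0.0243 and 0.0467). They were also called without either unstimulated Rag KO array, which enters only the spread estimate (adjusted p = 0.00845 and 0.0328). Leaving out WT arrays moved the values themselves: Itga4 was -0.98 without stimulated array 2 (adjusted p = 0.785), and Itgae was -0.84 without unstimulated array 1 (adjusted p = 0.274) and -1.11 without stimulated array 2 (adjusted p = 0.875). Itgb1 differed by -0.89 ± 0.31 (adjusted p = 0.218).

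No interaction of knockout and stimulation was called for any gene in either experiment: 0% of 19505 genes in the Rheb experiment and 0% in the Rag experiment passed in limma, with 1207 and 1202 at an unadjusted p under 0.05. In the Rag experiment the largest of the 9 were those of Itgb1 (1.50 ± 0.44, 95% interval 0.56 to 2.44) and Itgb3 (1.45 ± 0.39, 0.60 to 2.30), each with adjusted p = 0.728. The response of Itgb1 was 0.61 in Rag KO and -0.89 in WT. Without unstimulated Rag KO array 2, both interactions were called (2.01 and 1.83, adjusted p = 0.0171 and 0.0239). Without unstimulated Rag KO array 1 they were 0.99 and 1.08 (adjusted p = 0.991 for each). For the Rag KO effect minus the Rheb KO effect, 0.0564% of genes were called unstimulated and 0.19% stimulated, and none of the 9 was.

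The order of group means gives each gene's pattern. It is a description, since knockout values helped to choose the genes. How many of all genes have such separate orders was not counted. With 2 arrays per group separation is common. Between Rag KO and WT, 28.4% of all genes were separate unstimulated and 44.3% stimulated. In the Rheb experiment Itga9 ran highest in unstimulated KO, then unstimulated WT, stimulated KO and stimulated WT, with every neighbour separate. Itga4, Itgal and Itgb2 ran unstimulated WT, unstimulated KO, stimulated WT, stimulated KO, again with every neighbour separate. Itgb1 ran unstimulated WT, stimulated WT, unstimulated KO, stimulated KO, where the middle groups overlapped. Itgae ran unstimulated WT, unstimulated KO, stimulated KO, stimulated WT, where the first pair overlapped. For Itgb3 and Itgb7 all neighbours overlapped, and Itga6 separated only between unstimulated WT and unstimulated KO. In the Rag experiment Itga9 ran unstimulated KO, stimulated KO, unstimulated WT, stimulated WT, the 1 gene there whose neighbours were all separate. Itgb3 was separate in stimulated Rag KO at the top, and Itga4 and Itgb1 in unstimulated WT at the top.

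Across the 8 group means, centred within each experiment, Itgal and Itgb2 had a Pearson correlation of 0.96, Itga4 and Itgb1 one of 0.79 and Itga9 and Itgb1 one of -0.46. These are descriptions over 8 points that share arrays. The genes most like Itga9 by this measure were Peli2, Ly6c2 and Slc17a2 (0.98 each), those most like Itga4 were Bicdl1, Sesn1 and Sigirr (0.99, 0.99 and 0.98), and those most like Itgb1 were Rfc1, Cbx3 and Bmt2 (0.99, 0.98 and 0.98). A correlation does not measure size. In unstimulated Rheb KO these genes differed from WT, in the same order, by 0.57, 0.99 and 0.09, by -0.22, -0.38 and -0.15, and by -0.22, -0.31 and -0.09. In unstimulated Rag KO the differences were 1.33, 1.39 and 0.45, then -0.51, -1.09 and -0.48, then -0.77, -1.15 and -0.45.

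The other genes of the pathway were taken from lists. Of 15 other integrin subunits none was called in a knockout comparison. On stimulation in the Rheb experiment Itgb8, the partner of αV that activates TGF-beta, rose by 1.46 ± 0.15 in KO and 1.25 ± 0.15 in WT. Itgad (-1.16 and -0.99) and the dendritic cell integrin Itgax (-0.69 and -0.57) fell in KO and WT, and Itga2 fell in KO (-1.32 ± 0.20). The Itgax signal lay at or below the negative control median in both WT groups and in stimulated KO. None of the 15 was called in the Rag experiment.

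Among 28 genes of integrin activation and the adhesion complex, none was called in a knockout comparison, 8 fell and 1 rose on stimulation in Rheb KO, and 10 fell in WT. Rasgrp2, an activator of Rap1, fell by 1.09 ± 0.13 in KO and 0.91 ± 0.13 in WT, and the focal adhesion kinase relative Ptk2b by 0.83 and 1.03. The adaptor Skap1 fell by 0.64 in KO and 0.86 in WT. Fermt3, which encodes the kindlin that activates leukocyte integrins, fell by 0.85 in KO and 0.51 in WT, and Rassf5, which links Rap1 to LFA-1, by 0.69 and 0.50. Apbb1ip, which links Rap1 to talin, fell by 0.52 in KO and 0.58 in WT. In Rag KO Cytip, a regulator of LFA-1 adhesion, rose by 1.35 ± 0.23 (adjusted p = 0.0123), and none was called in WT of that experiment.

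Of 15 genes for integrin ligands none was called in a knockout comparison. On stimulation in Rheb KO Fn1 (1.41) and Lama5 (0.87) rose and Vcam1 (-0.91) fell. In WT Lama5 (0.95) and Npnt (0.79) rose while Vcam1 (-0.76) and Icam2 (-0.45) fell. Npnt, a ligand of α8β1, rose in Rag KO (1.55 ± 0.31).

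Of 14 homing receptor genes and regulators, Ccr9, the receptor that with α4β7 leads T cells to the small intestine, was higher in unstimulated Rag KO (1.87 ± 0.32, adjusted p = 0.047). Its Rag KO effect exceeded its Rheb KO effect (2.42 ± 0.45, adjusted p = 0.0411). Both Ccr9 calls lay near the threshold and rest on 2 arrays per group of the Rag experiment. Values of Ccr9 without single arrays are not given here. Gcnt1, an enzyme of selectin ligand synthesis, was higher in stimulated Rheb KO (0.98 ± 0.20, adjusted p = 0.0477). No other gene of this list was called in a knockout comparison. On stimulation Ccr9 fell by 2.57 in Rag KO, by 1.14 in Rheb KO and by 1.01 in WT of the Rheb experiment. In the Rheb experiment 5 of the 14 fell in each genotype, with the retinoic acid receptor gene Rara at -0.61 in KO and -0.60 in WT. The transcription factor gene Foxo1 (-0.61 in KO and -0.49 in WT), its target Klf2 (-0.45 and -0.60) and the egress receptor gene S1pr1 (-0.42 and -0.58) fell in both genotypes. Gpr15, a receptor for the large intestine, rose in Rheb KO (0.60 ± 0.18). In WT of the Rag experiment S1pr1 (-1.52) and Klf3 (-1.44) fell, and in Rag KO Cd44 rose (1.39).

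Of 10 genes of the TGF-beta pathway, which induces Itgae, none was called in a knockout comparison. On stimulation the receptor gene Tgfbr2 fell by 0.60 in Rheb KO and 0.53 in WT, the signal transducer Smad3 by 0.68 and 0.63, and Runx1 by 0.45 and 0.61. In WT the inhibitor Smad7 fell by 1.23 ± 0.15, and 1 gene rose, Runx3 (0.43 ± 0.11), named after its value was seen. None was called in the Rag experiment.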

How the data were processed

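Gene expression was measured on Clariom S arrays of 20 Treg samples, after NuGEN amplification of total RNA. The deposited values are log2 gene-level signals that the authors made by RMA (background correction, quantile normalization, probe summary) with Affymetrix Expression Console 1.1, per the submitters' processing notes. Whether the experiments were normalized together is not given in the sources used here. Of 28846 probe sets 19572 carried 1 gene and none several, and 5222 were negative controls. The probe set with the highest mean stood for a gene, which left 19505 genes, all tested.

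Limma 3.58.1 (R 4.3.3) fitted 1 mean per group to the 4 groups of an experiment, or to all 8 for the difference between the knockouts. A gene was called at a Benjamini-Hochberg adjusted p under 0.05 over all 19505 genes, in two-sided tests. The script was tested on simulated data. The number of arrays, 3 or 2 per group, limits the precision.

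The members, lists, tests and alternatives were chosen with earlier results of these data known. Named were all members, the 4 called genes of largest change per pathway list and comparison, with their values in the other genotype where called there, called marker genes, and the 3 genes with named symbols most correlated with Itga9, Itga4 and Itgb1. Marker lists of other cell types were counted. The replicate numbers were not taken to pair arrays, since the labels do not say so. Correlations of same-numbered arrays' deviations from group means ran from -0.20 to 0.18 over 18 pairs in the Rheb experiment, 2 of them over 0.1. In the Rag experiment, where 2 arrays per group leave 6 distinct values, they ran from -0.43 to 0.23 and 3 were over 0.1, too few arrays to settle pairing. Alternatives were another normalization, centring, filter, variance prior, set of arrays, and the replicate number as a block.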

Additional observations from a re-analysis of the deposited data

How the results depend on the processing

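Leaving out an array left some groups with 1 sample, which was then assumed to vary like the others. Where groups do not overlap, leaving out arrays cannot change the sign of their difference. The filter, the variance prior and the set of groups fitted leave every difference as it was. Under the second quantile normalization and the centring, which could change a sign, no knockout difference between separate groups did so. All 22 sign changes were among overlapping groups. The difference of Itgb1 in unstimulated Rag KO was -0.84 without the 2 arrays of lowest median, an alternative chosen after seeing the data, as was leaving out both Rag KO arrays numbered 2. Of the 9 genes, the number called on stimulation in the Rheb experiment stayed within 1.5 times. For WT in the Rag experiment it was 0 and became 1 with a second quantile normalization, the trended and robust variance prior or the replicate block (Itgae, -1.73, adjusted p = 0.0370), 2 with centring, the filter removing 40% of genes, only the compared groups, without the Rag KO arrays numbered 2 or without the low-median arrays, 3 with all 20 arrays in the fit, and 0 to 2 without single arrays. For Rag KO it was 1 and became 4 with the second normalization, 2 with centring, the filter, the trended prior or without the low-median arrays, 3 with all 20 arrays, 0 with only the compared groups, and 0 to 2 without single arrays. For the Rag interaction it was 0 and became 2 without the arrays numbered 2 and 0 to 2 without single arrays. For the Rag KO effect minus the Rheb KO effect, unstimulated, it was 0 and became 1 with the second normalization, 2 without the arrays numbered 2 and 0 to 2 without single arrays. Stimulated, it was 0 and became 1 with the second normalization, 2 with centring, 1 without the arrays numbered 2, 3 without the low-median arrays and 0 to 3 without single arrays. The cause of these changes was not tested. With all 20 arrays in 1 fit, Itgae in Rheb KO (adjusted p = 0.257) and Itgb1 and Itgb2 in WT (0.188 and 0.0881) lost their calls on stimulation in the Rheb experiment. Whether same-numbered arrays are pairs is not settled. The replicate block gave 69 and 52 called genes for Rheb KO, unstimulated and stimulated, against 99 and 106 without it, and 244 against 195 for stimulation of WT in the Rag experiment. Counts over all genes moved most in the Rag experiment: without single arrays 0 to 530 for unstimulated Rag KO (22 with all arrays), 2 to 109 for stimulated Rag KO (20), 45 to 1948 for its stimulation (258), 13 to 600 for stimulation of WT (195) and 0 to 387 for the interaction (0), and 5 to 871 and 12 to 130 for the difference between the knockouts, unstimulated (11) and stimulated (37). For Rheb KO they were 39 to 104 unstimulated (99) and 25 to 106 stimulated (106). Under the other alternatives the counts spanned 27 to 200 and 13 to 214 for unstimulated and stimulated Rheb KO, 12 to 486 and 42 to 274 for unstimulated and stimulated Rag KO, 920 to 2331 and 806 to 2286 for stimulation of Rheb KO and WT in the Rheb experiment, and 60 to 2146 and 244 to 1930 for stimulation of Rag KO and WT in the Rag experiment. The interactions then gave 0 to 7 genes in the Rheb and 0 to 196 in the Rag experiment. The filter removed 0 of the 9 genes, and no member had another probe set to try.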
